A study of Homo sapiens with 4 samples.

Results

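The genes described here are 40 mitosis genes, taken by name and not by their values: kinases, cyclins, spindle checkpoint proteins, kinetochore proteins, kinesins, condensin subunits and other proteins that act while a cell divides. On the arrays 38 of them had a probe by platform gene symbol, 42 of 29640 probes and 38 of 12222 genes. CCNB1 and NCAPD3 had none. CDK1 was matched under its older symbol CDC2 as well. The study exposed 2 colorectal cancer cell lines, HT-29 and DLD-1, to 5-aza-2'-deoxycytidine, a cytidine analogue that traps DNA methyltransferases and so lowers DNA methylation, and compared them with the same lines without it, in a search for genes that methylation had silenced. HT-29 treated cells and DLD-1 treated cells had 24 h of culture and then 96 h with 1 µM of the drug, in RPMI1640 medium with 10% fetal bovine serum. Untreated HT-29 and untreated DLD-1 cells were the other RNA of each array, and no treatment is recorded for them. Both RNAs of a line were hybridised together to oligonucleotide arrays carrying Cy3 and Cy5, on array 1 with treated RNA in Cy5 and on array 2 with the dyes exchanged, so the study has 4 arrays, 2 per line. Each line is 1 established cell line, and the labels name no separate cultures, so a p-value here covers only the spread between line means. In the main processing that spread was 1 value pooled over all genes and not each gene's own.

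Cells enter mitosis when cyclin B bound to CDK1 is switched on by CDC25 phosphatases. Condensins and topoisomerase II then pack and disentangle the chromosomes, kinetochores attach them to the spindle, and the checkpoint holds back the anaphase-promoting complex until every kinetochore is attached. Most of these genes are transcribed in G2 and M phase, so their summed RNA follows the share of dividing cells, and in bulk RNA fewer dividing cells and less RNA per cell cannot be told apart.

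Promoters of G2 and M phase genes are known for CCAAT boxes, bound by NF-Y, and for the cell cycle genes homology region, here searched as TTTGAA. RefSeq promoters of assembly GRCh38.p14, from 250 bases before to 50 bases after the start, were matched for 33 of the 40 genes. CCAAT was found on either strand in 24 of them (72.7%), against 35.7% of all 27303 promoters of that length. TTTGAA was found on either strand in 20 (60.6%), against 15.4% of all. Both letter strings were present in 16 (48.5%), against 6.08% of all. A match is a description of the letters and not a bound site. The median mitosis gene promoter held 25 CpG dinucleotides, the site of DNA methylation, against 14 over all promoters. Printed 5' to 3' on the gene's strand with every CCAAT and TTTGAA match in capitals on either strand (ATTGG and TTCAAA are the reverse complements) are the promoters of the 6 genes with the lowest HT-29 means when channel 2 is read as treated, followed by PRC1, which was above 0 on both HT-29 arrays. In MKI67 1 TTTGAA overlaps an ATTGG. The windows are chr12:6493852-6494151 (+) for NCAPD2, chr10:128126374-128126673 (-) for MKI67, chr10:60778081-60778380 (+) for CDK1, chr15:59104896-59105195 (+) for CCNB2, chr2:110678014-110678313 (-) for BUB1, chr4:17810729-17811028 (+) for NCAPG and chr15:90994486-90994785 (-) for PRC1.
NCAPD2: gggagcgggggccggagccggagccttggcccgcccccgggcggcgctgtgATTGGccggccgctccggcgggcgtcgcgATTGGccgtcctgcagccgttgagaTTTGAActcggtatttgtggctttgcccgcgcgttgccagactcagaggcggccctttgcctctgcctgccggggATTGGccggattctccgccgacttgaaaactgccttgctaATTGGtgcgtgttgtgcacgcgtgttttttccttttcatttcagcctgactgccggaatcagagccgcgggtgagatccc
MKI67: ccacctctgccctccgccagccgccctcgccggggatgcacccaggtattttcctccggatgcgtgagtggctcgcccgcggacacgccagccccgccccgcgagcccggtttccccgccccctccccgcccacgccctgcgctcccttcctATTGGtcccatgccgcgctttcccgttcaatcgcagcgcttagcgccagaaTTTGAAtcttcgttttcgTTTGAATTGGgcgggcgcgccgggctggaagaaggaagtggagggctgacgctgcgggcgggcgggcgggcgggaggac
CDK1: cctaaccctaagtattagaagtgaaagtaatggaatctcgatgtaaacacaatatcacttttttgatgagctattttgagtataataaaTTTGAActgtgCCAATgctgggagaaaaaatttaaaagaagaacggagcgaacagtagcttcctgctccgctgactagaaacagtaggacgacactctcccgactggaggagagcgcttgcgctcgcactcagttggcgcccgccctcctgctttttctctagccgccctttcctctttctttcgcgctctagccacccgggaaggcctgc
CCNB2: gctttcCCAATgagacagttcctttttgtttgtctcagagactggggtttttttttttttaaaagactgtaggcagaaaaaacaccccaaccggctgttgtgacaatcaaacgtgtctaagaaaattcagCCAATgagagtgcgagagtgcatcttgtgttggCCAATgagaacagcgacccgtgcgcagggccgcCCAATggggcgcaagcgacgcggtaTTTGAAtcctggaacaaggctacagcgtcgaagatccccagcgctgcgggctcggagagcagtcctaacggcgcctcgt
BUB1: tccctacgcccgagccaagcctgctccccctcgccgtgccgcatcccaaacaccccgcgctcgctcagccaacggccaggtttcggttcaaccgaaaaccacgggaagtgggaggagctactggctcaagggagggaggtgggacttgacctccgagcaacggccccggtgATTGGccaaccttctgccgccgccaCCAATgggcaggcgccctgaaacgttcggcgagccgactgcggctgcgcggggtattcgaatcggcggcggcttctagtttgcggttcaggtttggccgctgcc
NCAPG: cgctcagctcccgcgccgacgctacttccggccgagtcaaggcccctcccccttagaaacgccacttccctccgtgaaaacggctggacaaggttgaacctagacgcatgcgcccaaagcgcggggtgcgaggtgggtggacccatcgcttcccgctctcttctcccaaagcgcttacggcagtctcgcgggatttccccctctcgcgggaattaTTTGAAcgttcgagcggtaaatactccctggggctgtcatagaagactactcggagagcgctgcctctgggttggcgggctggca
PRC1: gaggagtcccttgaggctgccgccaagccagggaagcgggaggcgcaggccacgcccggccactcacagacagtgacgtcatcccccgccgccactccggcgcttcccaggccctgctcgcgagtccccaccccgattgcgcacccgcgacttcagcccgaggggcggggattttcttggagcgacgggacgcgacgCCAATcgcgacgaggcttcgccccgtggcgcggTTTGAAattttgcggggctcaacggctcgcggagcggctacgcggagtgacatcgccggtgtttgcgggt
NCAPD2 and CCNB2 hold 4 CCAAT matches each, MKI67 and BUB1 2 each, CDK1 and PRC1 1 each and NCAPG 0. TTTGAA is in every window printed except that of BUB1, with 2 matches in MKI67, and PRC1 holds both strings as well. The variant TTCGAA was also searched and is not put in capitals. The BUB1 window holds 1 match of it, the only one in the 33 promoters (3.03%), against 1.45% of all promoters. Of the 18 genes below 0 on both HT-29 arrays, 17 had a promoter entry, with CCAAT in 14 and TTTGAA in 12. Of the other 15 genes measured in HT-29, 10 had an entry, with CCAAT in 7 and TTTGAA in 5.

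Values below are log2 of treated over untreated RNA on 1 array, after background correction and a loess fit that removes an intensity trend. Channel 2 held treated RNA on array 1 of both lines, per the labels. On the dye-exchanged arrays the direction is not settled. The labels list treated RNA in channel 1 there, whereas the scanner columns name no dye. Channel 2 was read as treated on all 4 arrays, a reading under which the channel carrying Cy3 had the higher median local background on every array (359 against 64.0 on HT-29 array 1, 567 against 343 on HT-29 array 2, 334 against 275 on DLD-1 array 1, 545 against 94.2 on DLD-1 array 2). Under it 15 HT-29 genes passed 2-fold on both arrays with 1 sign and 23 with opposite signs, and in DLD-1 17 and 28, so these counts do not settle it either. The 2 HT-29 arrays had r = 0.00 across 18868 probes and the 2 DLD-1 arrays r = -0.45. With array 2 turned to the labels' order the DLD-1 correlation has the opposite sign. Signs on array 1 do not depend on this choice, and the labels' order is given beside the counts over the list and beside the genes described with their signals. Position in the printed blocks accounted for 23.2% to 49.7% of the variance of the ratios on an array. All 8 markers of intestinal epithelium with a probe were above background in untreated RNA on both arrays of each line. So were 3 of 4 fibroblast and 1 of 3 leukocyte markers in HT-29 and 4 of 4 and 3 of 3 in DLD-1, so signal above background alone did not set the lines apart from other cell types.

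With channel 2 read as treated, the mitosis genes leaned toward lower signal in treated HT-29 cells, with the lowest means in NCAPD2, CDK1, MKI67, CCNB2, BUB1 and NCAPG (-2.36 to -1.07). Under the labels' order NCAPD2 was still the lowest in HT-29, at -1.13, while CDK1 (0.85), CCNB2 (0.78), NCAPG (0.66), MKI67 (0.55) and BUB1 (0.49) had means above 0. On HT-29 array 1, where the direction is settled, all 6 were below 0 (-3.49 to -0.39). The means by which the 6 were picked include array 1, so that sign is partly built into the choice. Of all 33 mitosis genes measured in HT-29, 19 were below 0 on array 1, against 46.4% of all genes. In DLD-1 22 of 37 mitosis genes had opposite signs on its 2 arrays, as did 6417 of all 9524 genes. A gene was counted as measured where at least 1 channel lay over 2 background SDs above its local background on every array used. That held for 33 mitosis genes on both HT-29 arrays, 37 on both DLD-1 arrays and 33 on all 4 arrays. KIF2C was not measured in either line, and TTK, CENPA, KIF11 and SMC4 were not measured in HT-29.

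Of the 33 genes measured in HT-29, 18 lay below 0 on both arrays, where 28.4% of all 9715 genes measured in the line did. Another 6 lay above 0 on both arrays (27.9% of all genes), and 9 had opposite signs (4248 of all 9715 genes). On array 1 alone, whose direction is settled, 19 of 33 were below 0, against 46.4% of all genes. On array 2, 26 of 33 were below 0, against 54.2%. The median over the mitosis genes was -0.27 on HT-29 array 1 and -0.29 on array 2, against 0.04 and -0.07 over all genes. The median of the line means was -0.29, against -0.01 over all genes. Across the 33 genes the 2 HT-29 arrays had r = 0.44, a description across genes that share arrays and are not independent. With the labels' order 1 gene lay below 0 on both arrays (18% of all genes) and 8 above (25.8%), and the median was 0.12, against 0.05 over all genes. With each printed block's median set to 0, 19 genes lay below 0 on both arrays (22.1% of all genes), and the medians were -0.14 and -0.32.

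In DLD-1 8 of 37 genes lay below 0 on both arrays, where 17% of all 9524 genes measured in that line did, and 7 lay above 0 (15.6%). Signs were opposite in the other 22 (6417 of all 9524 genes). The median was 0.15 on DLD-1 array 1 and -0.11 on array 2, against 0.05 and -0.07 over all genes, and that of the line means was -0.07, against -0.04. Across the 33 genes measured everywhere the 2 DLD-1 arrays had r = -0.58. On array 1 alone 15 of 37 were below 0 (45.1% of all genes) and on array 2 23 of 37 (56.3%). These shares are close to those of all genes. Under the labels' order 7 of the 37 were below 0 on both arrays (28.1% of all genes) and 15 above (39.3%), with a median of 0.11, against 0.07 over all genes.

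**Figure D1:**
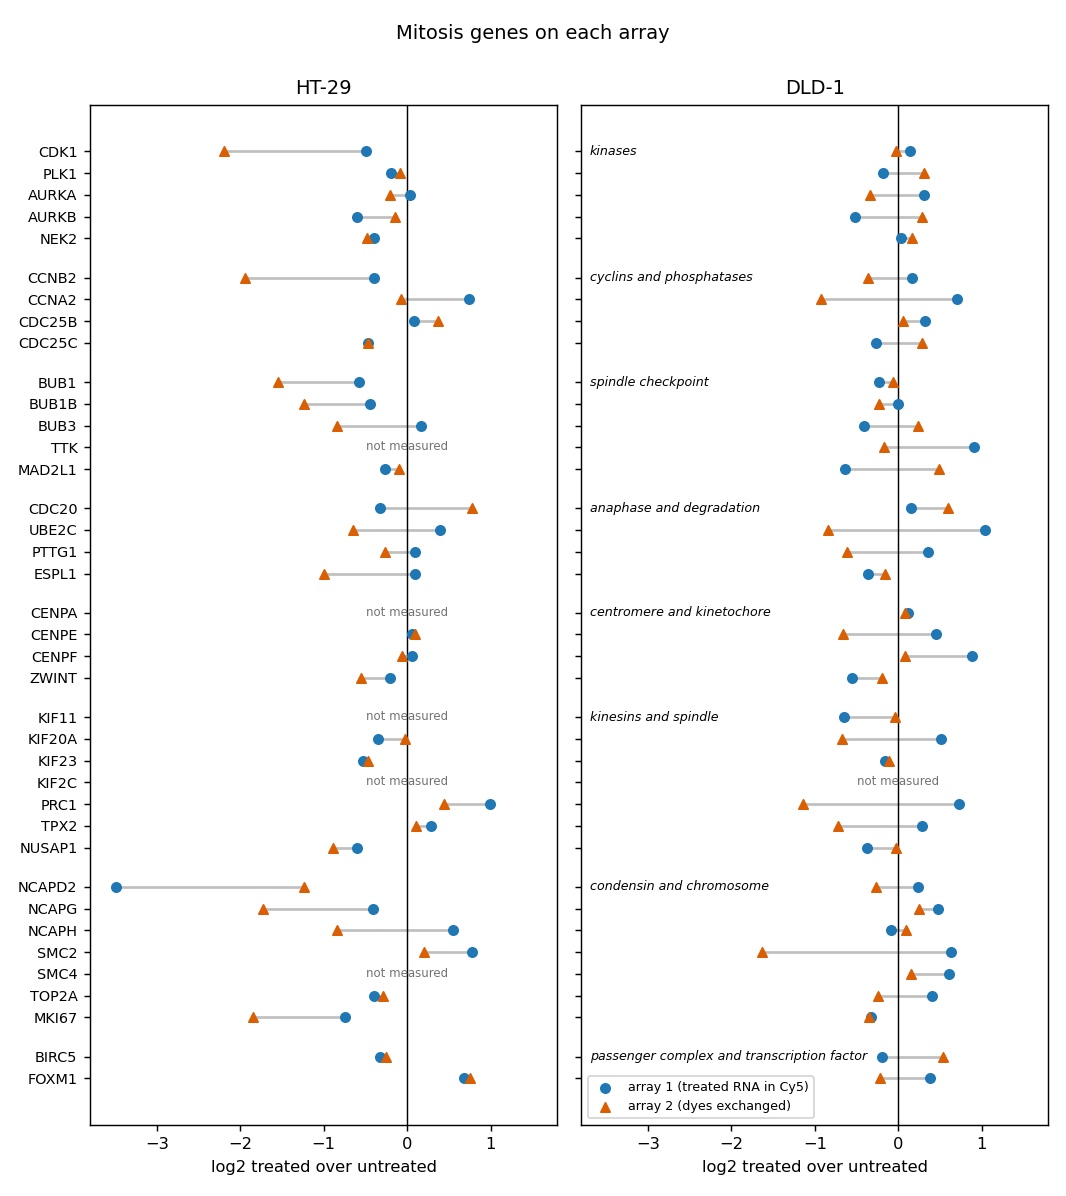
Log2 treated over untreated signal (horizontal axis) of 38 mitosis genes, grouped by role, in HT-29 and DLD-1, with circles for array 1, triangles for array 2 and a grey line joining both, channel 2 read as treated. In HT-29 both marks of 18 genes lie left of 0, and in DLD-1 the marks of 22 genes lie on opposite sides.

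Log2 ratios averaged over the 2 arrays of a line were tested over both line means with limma, which across 8470 genes called 4 lower (0.0472%) and 16 higher (0.189%) in treated cells. Of the 33 mitosis genes 1, NCAPD2, passed as lower, 0 passed as higher and 32 did not pass. At an unadjusted limma p under 0.05, 7 mitosis genes were lower and 0 higher, against 152 and 271 of all genes. An exact two-sided sign-flip test over 2 lines gives 0.5 at the least. The limma p therefore depends on 1 variance taken as common to all genes (SE 0.217). In size, at least 2-fold lower on both arrays, 1 mitosis gene of 33 passed in HT-29 (0.0309% of all genes) and 0 of 37 in DLD-1 (0.0105%). At least 2-fold higher on both arrays were 0 in HT-29 (0.124%) and 0 in DLD-1 (0.168%). At least 1.5-fold on both DLD-1 arrays 0 mitosis genes were lower (0.105%) and 0 higher (0.63%). With block medians at 0, 4 of the 37 lay below 0 on both DLD-1 arrays (21.5%).

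The condensin complex folds chromatin into compact chromosomes. NCAPD2, a HEAT-repeat subunit of condensin I, had normalized signals of 1142 and 1046 in treated HT-29 cells on arrays 1 and 2, against 12846 and 2457 in untreated HT-29 cells. Treated signal was the lower on both arrays, and the gap was wider on array 1. Its log2 ratios were -3.49 and -1.23, a mean of -2.36 ± 1.60 (SD, n = 2 arrays), which is 5.14-fold lower. In DLD-1 its signals were 835 and 2439 in treated cells and 709 and 2925 in untreated cells, with ratios of 0.24 and -0.26 and a mean of -0.01 ± 0.35. The DLD-1 ratios had opposite signs and the groups overlapped. The difference between the lines, HT-29 minus DLD-1, was -2.35. Over both lines NCAPD2 fell by 1.19 on the log2 scale (95% interval -1.61 to -0.76, limma adjusted p = 4.11e-05), with HT-29 at -2.36 and DLD-1 at -0.01. That interval rests on the variance pooled over all genes and holds neither line mean.

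That call was lost under several settings. With the labels' order the mean of NCAPD2 was -0.44 (limma adjusted p = 0.491), smaller in size than those of UBE2C (0.73), SMC2 (0.71), CCNA2 (0.61) and PRC1 (0.60), and with block medians at 0 it was -1.02 (limma adjusted p = 0.957). Without HT-29 array 1 it was -0.62 (limma adjusted p = 0.976), without HT-29 array 2 it was -1.75 (0.342) and without DLD-1 array 1 it was -1.31 (0.173). NCAPD2 had a single probe, whose untreated signal was above background on 1 of 2 DLD-1 arrays.

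NCAPG, another condensin I subunit, had signals of 313 and 1965 in treated HT-29 cells, against 415 and 6493 in untreated HT-29 cells. Both treated signals were the lower, with log2 ratios of -0.41 and -1.72 and a mean of -1.07 ± 0.93, or 0.66 under the labels' order. In DLD-1 it had 10067 and 1417 in treated cells, against 7263 and 1189 in untreated cells, with ratios of 0.47 and 0.25. NCAPG was lower on both HT-29 arrays and higher on both DLD-1 arrays, as were NEK2 and, over the probes measured on all 4 arrays, TOP2A (3.21% of all genes). With block medians at 0 NEK2 had opposite signs in DLD-1, 0.48 and -0.12. The opposite pattern, higher on both HT-29 arrays and lower on both DLD-1 arrays, was found in 0 mitosis genes (4.66% of all genes). NCAPH, the kleisin that closes the condensin I ring, had opposite signs on the HT-29 arrays, 0.55 and -0.84. SMC2, an ATPase arm of condensin, had 0.78 and 0.20 in HT-29, above 0 on both arrays, and 0.63 and -1.64 in DLD-1. SMC4, its partner arm, was measured in DLD-1 only, at 0.61 and 0.15. With channel 2 read as treated, condensin subunits therefore did not share a direction in HT-29. Untreated SMC2 signal and treated NCAPH signal were each above background on 1 of 2 HT-29 arrays. With block medians at 0 the HT-29 ratios of SMC2 were 0.50 and -0.10.

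MKI67 encodes Ki-67, which coats mitotic chromosomes and is the usual marker of dividing cells. Its signals were 444 and 572 in treated HT-29 cells, against 747 and 2059 in untreated HT-29 cells. In DLD-1 they were 1302 and 890 in treated cells and 1637 and 1140 in untreated cells. Treated signal was the lower on all 4 arrays, at -0.75 and -1.85 in HT-29 and -0.33 and -0.36 in DLD-1. The mean was -1.30 ± 0.78 in HT-29 and -0.34 ± 0.02 in DLD-1. With block medians at 0 the DLD-1 ratios of MKI67 were 0.12 and -0.64, of opposite signs and far apart, and its HT-29 ratios were -0.39 and -1.59. Over both lines MKI67 averaged -0.82 (95% interval -1.25 to -0.40) and did not pass the test (limma adjusted p = 0.055). Under the labels' order its mean was 0.28 (limma adjusted p = 0.710). On 1 of the 2 HT-29 arrays the treated signal of MKI67 was not above background, so no fold is given. TOP2A, the topoisomerase that untangles sister DNA, averaged -0.39 and -0.29 in HT-29 over its measured probes and 0.40 and -0.25 in DLD-1 over its probes there.

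**Figure D2:**
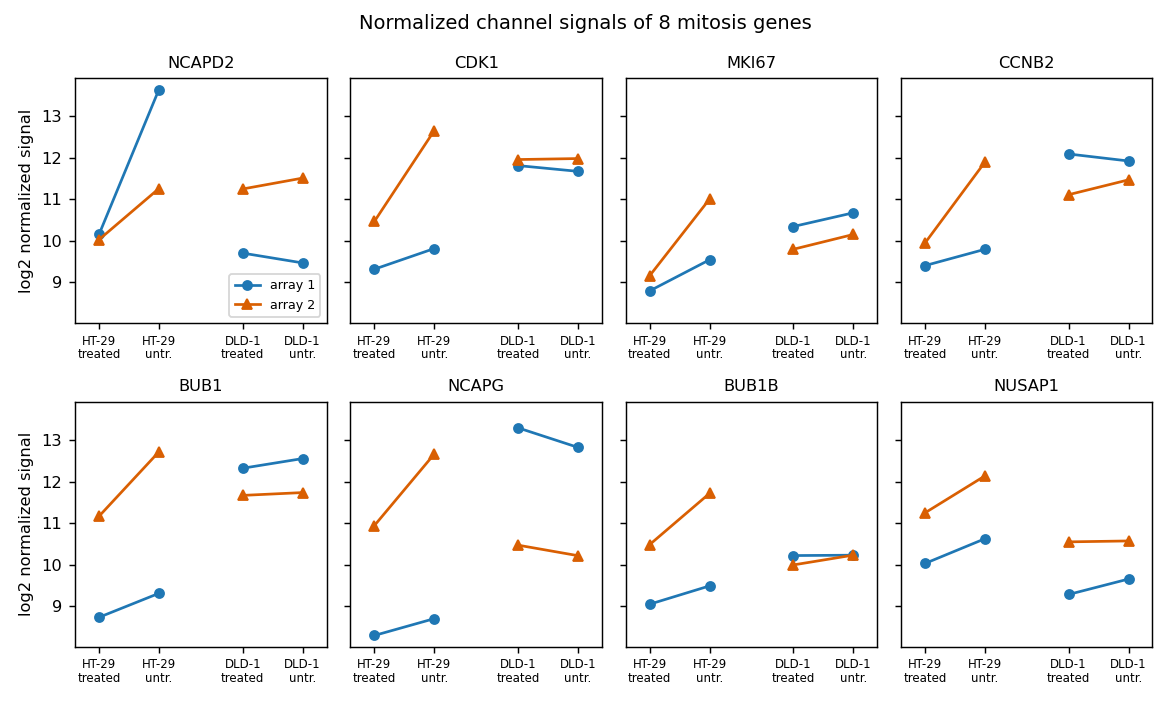
Log2 normalized signal (vertical axis) of NCAPD2, CDK1, MKI67, CCNB2, BUB1, NCAPG, BUB1B and NUSAP1 in treated and untreated RNA of HT-29 and DLD-1, circles for array 1 and triangles for array 2, each line joining both channels of 1 array. In HT-29 the treated signal lies below the untreated signal on both arrays for all 8 genes, and in DLD-1 the direction differs between genes and, in NCAPD2, CDK1 and CCNB2, between arrays.

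CDK1, the engine of mitotic entry, had the lowest HT-29 mean of the 5 kinases with channel 2 as treated and the highest under the labels' order (0.85, against -0.23 to 0.12). CDK1 signals were 638 and 1417 in treated HT-29 cells, against 901 and 6464 in untreated HT-29 cells. In DLD-1 they were 3605 and 3989 in treated cells and 3275 and 4054 in untreated cells. The HT-29 gap was small on array 1 and wide on array 2, with log2 ratios of -0.50 and -2.19 and a mean of -1.34 ± 1.20, while DLD-1 had 0.14 and -0.02. Over both lines CDK1 averaged -0.64 (limma adjusted p = 0.352). Under the labels' order it averaged 0.46 (limma adjusted p = 0.461), so the sign of its mean depends on how array 2 is read. Treated CDK1 signal in HT-29 passed the background limit on 1 of 2 arrays.

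PLK1, which drives centrosome maturation and mitotic exit, had -0.20 and -0.08 in HT-29 and -0.19 and 0.30 in DLD-1. AURKA, the spindle pole kinase, had 0.03 and -0.21 in HT-29 and 0.31 and -0.34 in DLD-1. AURKB, the kinase of the chromosomal passenger complex, had -0.61 and -0.14 in HT-29 and -0.52 and 0.29 in DLD-1. In DLD-1 the signs of all these differed between arrays. NEK2, a centrosome kinase, had the closest arrays of the 5 kinases in HT-29, -0.39 and -0.48, and 0.03 and 0.16 in DLD-1. The median of the 5 kinases was -0.37 in HT-29 and 0.06 in DLD-1, and under the labels' order 0.04 and -0.07.

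Of the cyclins, CCNB2, a B-type partner of CDK1, had signals of 678 and 987 in treated HT-29 cells, against 890 and 3814 in untreated HT-29 cells. In DLD-1 it had 4376 and 2217 in treated cells and 3893 and 2841 in untreated cells. Its log2 ratios resembled those of CDK1, -0.39 and -1.95 in HT-29 (mean -1.17 ± 1.10) and 0.17 and -0.36 in DLD-1, and it did not pass over both lines (mean -0.63, limma adjusted p = 0.372). Under the labels' order the mean was 0.52 (limma adjusted p = 0.394). CCNA2, the cyclin of S phase and G2, was not of that pattern, at 0.74 and -0.07 in HT-29 and 0.70 and -0.92 in DLD-1. CDC25B, a phosphatase that activates CDK1, was above 0 on all 4 arrays, 0.09 and 0.37 in HT-29 and 0.32 and 0.06 in DLD-1, the only such mitosis gene (4.24% of all genes). With block medians at 0 its HT-29 ratios were -0.15 and -0.11, and under the labels' order its HT-29 mean was -0.14. In the authors' deposited log2 ratios it had -0.01 on HT-29 array 1 and -0.09 on DLD-1 array 2. CDC25C, of the same family, had -0.47 on both HT-29 arrays and -0.27 and 0.28 in DLD-1.

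The spindle checkpoint genes had a median of -0.59 in HT-29 and -0.09 in DLD-1, and under the labels' order 0.44 and -0.08. BUB1, a kinetochore kinase, had signals of 424 and 2299 in treated HT-29 cells, against 634 and 6744 in untreated HT-29 cells. In DLD-1 they were 5125 and 3255 in treated cells and 6023 and 3412 in untreated cells. All 4 ratios were below 0, -0.58 and -1.55 in HT-29 (mean -1.07 ± 0.69) and -0.23 and -0.07 in DLD-1. BUB1B, the BUBR1 subunit of the checkpoint complex, was also below 0 on all 4 arrays, at -0.44 and -1.23 in HT-29 and -0.01 and -0.24 in DLD-1. With block medians at 0, DLD-1 array 1 gave 0.22 for BUB1 and 0.01 for BUB1B. In the authors' deposited log2 ratios BUB1 had 0.03 on DLD-1 array 2 and BUB1B had 0.20 on DLD-1 array 1. Neither passed over both lines (BUB1 mean -0.61, limma adjusted p = 0.422, and BUB1B mean -0.48, limma adjusted p = 0.80). Their HT-29 means were 0.49 and 0.40 under the labels' order. BUB3, their WD-repeat partner, had opposite signs in each line, 0.16 and -0.84 in HT-29 and -0.42 and 0.23 in DLD-1. MAD2L1, the MAD2 protein that inhibits CDC20, had -0.27 and -0.10 in HT-29 and -0.64 and 0.49 in DLD-1. TTK, the kinase MPS1 that starts the signal, was measured in DLD-1 only, at 0.91 and -0.18.

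Genes of anaphase had mixed signs. CDC20, the activator that the checkpoint restrains, had -0.32 and 0.78 in HT-29 and 0.15 and 0.60 in DLD-1. UBE2C, the ubiquitin-conjugating enzyme of the anaphase-promoting complex, had 0.39 and -0.65 in HT-29 and 1.04 and -0.85 in DLD-1. PTTG1, the securin that holds separase inactive, had 0.09 and -0.27 in HT-29 and 0.36 and -0.62 in DLD-1. ESPL1, separase itself, had 0.10 and -0.99 in HT-29 and -0.37 and -0.16 in DLD-1. All 4 genes had opposite signs on the HT-29 arrays, so their HT-29 means say little.

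At the centromere, ZWINT, which links the outer kinetochore to the ZW10 complex, was below 0 on all 4 arrays, -0.21 and -0.56 in HT-29 and -0.55 and -0.20 in DLD-1. CENPE, a kinetochore motor, had 0.05 and 0.10 in HT-29 and 0.45 and -0.66 in DLD-1. CENPF, a large kinetochore protein of G2 and M phase, had 0.05 and -0.07 in HT-29 and 0.89 and 0.08 in DLD-1. CENPA, the centromeric histone H3 variant, was measured in DLD-1 only, at 0.12 and 0.08.

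Kinesins and spindle proteins had a median of -0.19 in HT-29 and -0.20 in DLD-1, and under the labels' order 0.09 and 0.24. NUSAP1, a microtubule bundling protein, had signals of 1043 and 2430 in treated HT-29 cells, against 1577 and 4505 in untreated HT-29 cells. In DLD-1 it had 622 and 1497 in treated cells and 804 and 1520 in untreated cells. It was below 0 on all 4 arrays, -0.60 and -0.89 in HT-29 (mean -0.74 ± 0.21) and -0.37 and -0.02 in DLD-1, with a mean over both lines of -0.47 (limma adjusted p = 0.845), or -0.01 under the labels' order. At least 1.5-fold lower on both HT-29 arrays were 3 mitosis genes, NUSAP1, MKI67 and NCAPD2 (0.679% of all genes), and with block medians at 0 this count was 1 (0.422%). KIF23, a kinesin of the central spindle, was the remaining gene of the 6 below 0 on all 4 arrays (3.65% of all genes), with -0.53 and -0.47 in HT-29 and -0.16 and -0.11 in DLD-1. With block medians at 0 KIF23 had 0.0017 on DLD-1 array 1. KIF20A, another central spindle kinesin, had -0.35 and -0.03 in HT-29 and 0.52 and -0.67 in DLD-1. KIF11, the motor that pushes spindle poles apart, was measured in DLD-1 only, at -0.65 and -0.04. TPX2, an activator of AURKA, had 0.29 and 0.11 in HT-29 and 0.29 and -0.73 in DLD-1.

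PRC1, which bundles the midzone microtubules, had signals of 282 and 2331 in treated HT-29 cells, against 142 and 1720 in untreated HT-29 cells. Its ratios of 0.99 and 0.44 were both above 0 in HT-29, while DLD-1 had 0.73 and -1.14. With block medians at 0 the HT-29 ratios were 0.71 and 0.14, and under the labels' order the HT-29 mean was 0.27. Untreated PRC1 signal passed the background limit on 1 of its 2 HT-29 arrays. FOXM1, the transcription factor that activates many G2 and M phase genes, had signals of 37056 and 31481 in treated HT-29 cells, against 23162 and 18738 in untreated HT-29 cells. In DLD-1 it had 37586 and 28572 in treated cells and 28891 and 33295 in untreated cells. Its HT-29 ratios were 0.68 and 0.75 (mean 0.71 ± 0.05, 1.64-fold), and it was the only mitosis gene at least 1.5-fold higher on both (0.988% of all genes). This depended on the processing. In HT-29 its ratios were 0.44 and 0.27 with block medians at 0, 1.19 and -0.0044 in the authors' deposited log2 ratios, and its mean was -0.04 under the labels' order. In DLD-1 its ratios were 0.38 and -0.22, and over both lines it averaged 0.40 (limma adjusted p = 0.990). BIRC5, survivin of the chromosomal passenger complex, had -0.33 and -0.25 in HT-29 and -0.20 and 0.54 in DLD-1.

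**Figure D3:**
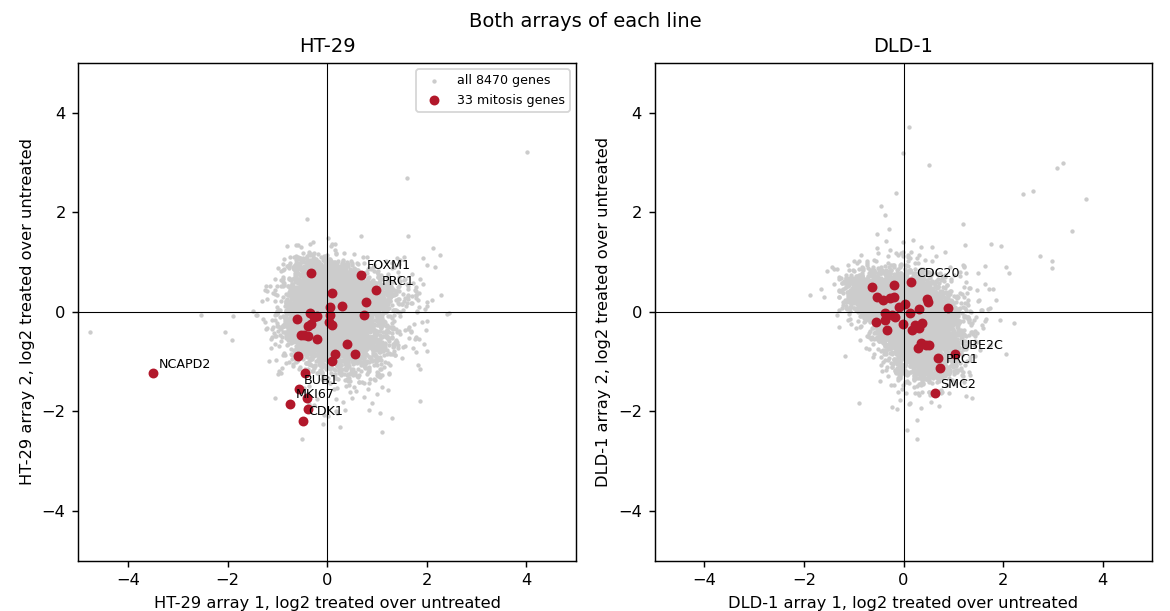
Log2 treated over untreated signal on array 1 (horizontal axis) against array 2 (vertical axis) of HT-29 and of DLD-1, with 33 mitosis genes in red over all 8470 genes in grey. In HT-29 NCAPD2, MKI67, CDK1 and BUB1 lie in the lower left corner, and in DLD-1 PRC1, SMC2 and UBE2C lie at lower right, with array 1 above 0 and array 2 below 0.

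Probes of 1 gene did not always go the same way. The 4 platform probes of TOP2A had HT-29 ratios of -0.44 and -1.24, -0.52 and -0.36, -0.21 and 0.72, and 0.45 and 1.11, the last pair from a probe not measured on both HT-29 arrays. So 2 of its 3 measured probes were below 0 on both arrays. Untreated signal of each of these 2 was above background on 1 HT-29 array. The probe with -0.21 and 0.72 was above background in both RNAs on both arrays. Probes named only by the scanner files' descriptions were kept out of the counts. Of these, MAD2L1 had -0.59 and -1.17 in HT-29 and -0.43 and 0.34 in DLD-1. TOP2A had 2 such probes, with 0.39 and 0.11, and 0.29 and -0.73, in HT-29, so neither was below 0 on both arrays. BIRC5 had 2 such probes, with 0.98 and -1.08, and -0.50 and 0.33, in HT-29, where its platform probe had been below 0 on both arrays. CDC25B had 0.68 and 0.18 in HT-29 and 1.34 and -0.95 in DLD-1.

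Of 84 further mitosis genes listed, 74 had a probe and 57 were measured on all 4 arrays, and by limma 0 passed as higher and 0 as lower over both lines, with 1 and 4 at an unadjusted p under 0.05. Their median was -0.12 in HT-29 and -0.02 in DLD-1, and the difference from the 40 genes was not tested. In HT-29 23 of 59 were below 0 on both arrays (28.4% of all genes) and 14 above (27.9%). Of the 57, 4 were below 0 on all 4 arrays (3.65% of all genes) and 3 above (4.24%). Their HT-29 median was 0.03 under the labels' order. PBK, a mitotic kinase, had -0.16 and -0.58 in HT-29 and -0.45 and -0.91 in DLD-1 (mean -0.53, limma adjusted p = 0.680). MAD1L1, the MAD1 protein that recruits MAD2 to kinetochores, had -0.10 and -0.52 in HT-29 and -0.55 and -0.15 in DLD-1. CDC16, a subunit of the anaphase-promoting complex, was above 0 on all arrays, 1.03 and 0.27 in HT-29 and 0.78 and 0.03 in DLD-1 (mean 0.53, limma adjusted p = 0.680). MAD2L1BP, which removes MAD2 from its complexes, had 0.50 and 0.61 in HT-29 and 0.25 and 0.15 in DLD-1, and LMNB1, lamin B1, had 0.08 and 0.48 in HT-29 and 0.50 and 0.10 in DLD-1.

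The log2 spot signal of each mitosis gene, averaged over both RNAs and both arrays of a line, differed between the lines by a median of -0.40 (HT-29 minus DLD-1), against -0.09 over all genes. It was higher in HT-29 for 9 of 33, against 3871 of all 8470 genes. For this comparison the average spot signals were brought to a common distribution on all arrays (quantile normalization). Each array carried 1 line, so array or scan differences and cell line cannot be told apart here. The channel signals printed here were not scaled between arrays, and those of 1 line can differ widely between its arrays. In CDC20, for example, DLD-1 signals were 1447 and 23305 in treated cells and 1304 and 15424 in untreated cells.

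**Figure D4:**
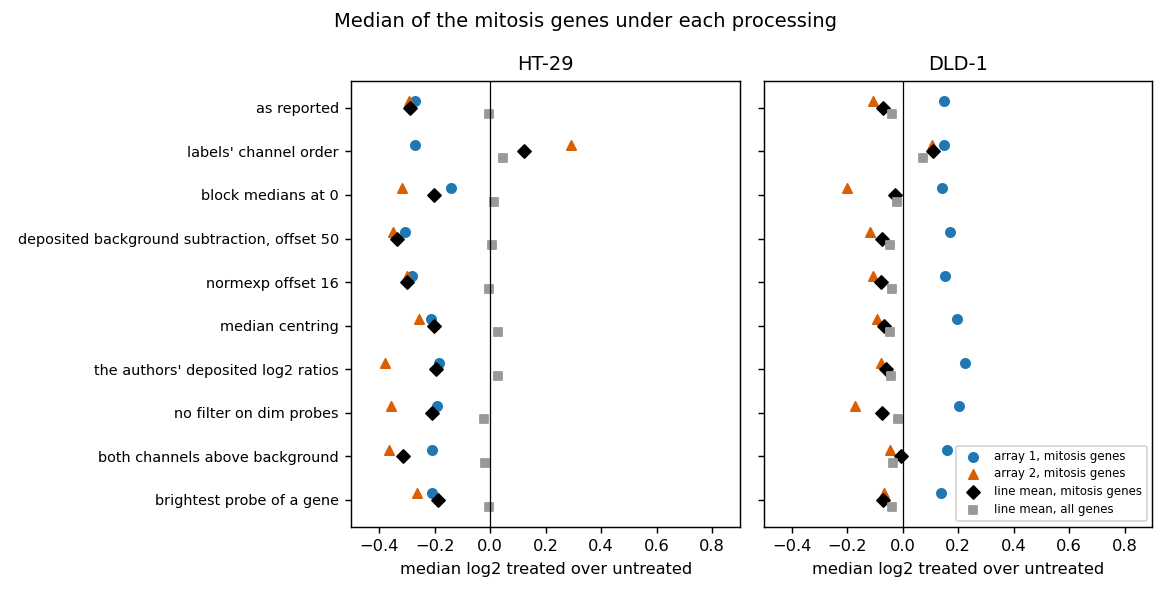
Median log2 treated over untreated signal (horizontal axis) of the mitosis genes on array 1 (circles), on array 2 (triangles) and of the line means (diamonds), with the median over all genes (squares), under each processing setting (rows), for HT-29 and DLD-1. The HT-29 line mean is -0.29 as reported and 0.12 under the labels' channel order. Every other setting shown reads channel 2 as treated on array 2, so none of them bears on that choice.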

How the data were processed

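Arrays of HT-29 and DLD-1 RNA were analysed from the deposited scanner files, which give per spot both channels' intensity with its local background and the SD of that background, plus a background-subtracted intensity, per the file headers. The authors' deposited log2 ratios were used as an alternative. For the scanner and its software, the sources used here give no name. Spots of 29640 non-control probes were corrected by limma 3.58.1 in R 4.3.3 (normexp, offset 50) and normalized by 1 loess curve per array. Probes with at least 1 channel over background by more than 2 SD on every array used were kept, and probes of a gene were averaged. Only for the comparison of the lines by average spot signal, those signals were also quantile-normalized between arrays. The platform table gave 14200 probes 1 symbol, 447 several and 14993 none. Both arrays of a line were averaged, and limma (lmFit, eBayes) set the line means against 0 in a two-sided test, adjusted by Benjamini-Hochberg across all genes and called under 0.05. Within a line there is no test. The steps were tested on simulated data. Any of the 40 genes could be named. Of 84 other mitosis genes, those past the limma threshold and the 5 largest mean ratios among those with 1 sign on all arrays could be named. The genes and lists were chosen with earlier results of these data known. Alternatives were the labels' channel order, block medians at 0, other background correction and centring, the authors' values, other filters and leaving out each array.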

Additional observations from a re-analysis of the deposited data

Results flagged for a closer look

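In 3 mitosis genes both HT-29 arrays moved one way and both DLD-1 arrays the other, lower in treated HT-29 cells and higher in treated DLD-1 cells, as 3.21% of all genes did. The mean log2 ratio in HT-29 minus that in DLD-1 was -1.43 for NCAPG, -0.54 for NEK2 and -0.69 for TOP2A, here over TOP2A probes measured on all 4 arrays. The difference between the lines was not tested. With block medians at 0 NEK2 had 0.48 and -0.12 in DLD-1 and lost the pattern, while NCAPG kept it. The only platform probe of TOP2A above background in both RNAs on all 4 arrays did not show it. That probe had -0.21 and 0.72 in HT-29 and -0.13 and 0.05 in DLD-1. The labels' channel order turns the sign of array 2, so genes picked this way then have opposite signs on the 2 arrays of each line. Under that order the means in HT-29 and DLD-1 were 0.66 and 0.11 for NCAPG, 0.04 and -0.07 for NEK2 and -0.05 and 0.14 for TOP2A.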

How the results depend on the processing

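Each log2 ratio already pairs the treated and untreated RNA of 1 array. No further pairing was used, since the result comes from 2 line means. Signs on array 2 rest on which channel held treated RNA. All settings below except the labels' order read channel 2 as treated on every array used, so they do not bear on that choice. With the labels' channel order limma called 56 genes higher and 2 lower, 0 mitosis genes lower, 0 mitosis genes below 0 on all arrays (5.64% of all genes) and 0 at least 2-fold lower in HT-29, with medians of 0.12 in HT-29 and 0.11 in DLD-1. With block medians at 0 it called 2 genes higher and 0 lower, 0 mitosis genes lower, with 3 below 0 on all arrays (4.99% of all genes) and an HT-29 median of -0.20. Those 3 were ZWINT, NUSAP1 and ESPL1, so MKI67, BUB1, BUB1B and KIF23 were no longer among them. With deposited background subtraction it called 6 higher and 0 lower, 0 mitosis genes lower, with an HT-29 median of -0.34. With the authors' deposited log2 ratios it called 9 higher and 0 lower, 0 mitosis genes lower, with 2 of 21 below 0 on all arrays (3.43%) and an HT-29 median of -0.19. Median centring gave 2 lower genes and an HT-29 median of -0.20. No filter on dim probes gave 31 higher and 7 lower genes and -0.21. Requiring both channels above background gave 1 lower gene, 0 mitosis genes lower and -0.31, and the brightest probe of a gene gave -0.19. At 1.5-fold 3 mitosis genes were lower in HT-29 (0.679%). Leaving out 1 array at a time, limma called 8 to 300 genes higher and 0 to 130 lower, 0 to 1 mitosis genes higher and 0 to 2 lower. Without DLD-1 array 2 these were PRC1 higher and MKI67 and NCAPD2 lower. Mitosis genes below 0 on all arrays left numbered 7 to 11 (11 without DLD-1 array 2, 19.3% of all genes; 10 without DLD-1 array 1, 7%). Those at least 2-fold lower numbered 1 to 7 in HT-29 (7 without array 1, 2.52%) and 0 to 2 in DLD-1 (2 without array 1, 3.96%), and medians were -0.28 to -0.20 in HT-29 and -0.11 to 0.16 in DLD-1. NCAPD2 was still called with an offset of 16, median centring, no filter and the brightest probe (limma adjusted p of 7.6e-05, 0.00109, 0.000583 and 6.76e-05). Without DLD-1 array 2 its limma adjusted p was 0.00147. With deposited background subtraction its mean was -1.25 (limma adjusted p = 0.731). It was not among the genes tested with the authors' ratios or with both channels above background. Of 70 mean ratios of single genes in a line, 39 changed sign under the labels' order, 13 with block medians at 0 and 0 to 4 under the other processing settings. With 2 arrays a line, precision is limited by their number.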
